A study of Rattus norvegicus with 18 samples.

Results

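The response of miR-337-/- mesenchymal stem cells (MSCs) to cyclic stretch was read from 3 stretched libraries (KO CMS) against 3 serum-starved libraries (KO SSt), over 12888 of 32623 listed genes. These are the genes whose FPKM, the sequenced fragments of a gene scaled to transcript length and library size, was 1 or more in 3 or more KO libraries out of 9. The filter was close for P2rx5 and Ccdc69, whose third-highest FPKM of the 9 libraries was 1.0 and 1.004, and for Llgl2, Ccdc152 and Slc3a1, left out at 0.9998, 0.9982 and 0.9948. All cells came from the bone marrow of Sprague Dawley (SD) rats aged 2 months, were grown to passage 3 and then went without serum for 8 h, so both groups were starved first. The KO cells came from miR-337-KO rats and were either left in serum starvation (SSt), given fetal bovine serum (FBS) or stretched cyclically by 10% (CMS), with 3 libraries per group. The study grew wild-type (WT) cells under the same 3 conditions, which makes 18 libraries in 6 groups. The sample labels give 24 h of treatment and the study's methods 16 h, so the duration is not certain. No source used here says that replicates are separate rats or cultures, so the p-values cover the spread among these libraries, which may be technical.

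MSCs are adherent stromal cells of the marrow that can form bone, cartilage and fat, and stretching them stands for the loading that bone receives in a moving animal. Load reaches the nucleus through integrins and focal adhesions, stretch-gated channels such as Piezo1, the actin cytoskeleton and the transcriptional co-activator YAP. Growth factors and insulin-like signals act through IRS1, the PI3K enzymes, AKT and mTOR, and a microRNA such as miR-337 can lower an mRNA that pairs with its seed.

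The 2 mature strands of the deleted microRNA are shown as RefSeq gives them for the rat build GRCr8, on the plus strand at chr6:134321170-134321190 and chr6:134321201-134321223. Capitals mark the seed, bases 2 to 8, which pairs with target mRNAs.
rno-miR-337-5p: cGGCGUCAugcaggaguugau
rno-miR-337-3p: uUCAGCUCcuauaugaugccuuu
The Mir337 gene was listed with a count of 0 in all 18 libraries, WT included, so these tables do not check the genotype.

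Depth was 60.16 to 64.42 M counts per library in KO SSt, 57.12 to 71.08 M in KO CMS and 56.08 to 63.71 M in KO FBS. Pearson's r of log2 levels between libraries, across genes, was 0.970 to 0.973 within KO SSt, 0.971 to 0.974 within KO CMS and 0.884 to 0.892 between these groups. KO FBS replicate 1 correlated with the KO CMS libraries (0.965 to 0.967) as well as with its own group (0.964 to 0.967), and values of KO CMS against KO FBS are given with and without it. Nos2, Ccl3 and Serpinb2 were high in KO CMS and WT SSt and low in KO SSt and WT CMS. All 24 tested sterol genes passed as higher in CMS than in SSt in both tables. Of 39 tested mitosis genes all passed as lower in KO CMS and 31 in WT CMS. Whether labels of 1 table were exchanged was not tested, and an exchange would change the meaning of each comparison of KO with WT. An exchange of SSt and CMS in the KO table would also reverse the direction of every KO CMS against KO SSt value given below. Of the stromal markers, Thy1 was at 408 to 684 FPKM and Cd44 at 198 to 283 FPKM in the 6 libraries. Lepr, which marks MSCs in marrow, was at no more than 0.0700 FPKM. The study reports nearly all of its cultured MSCs as LepR-positive by flow cytometry. That is a measure of protein and not of RNA, and the difference was not tested. Blood cell markers were present: the summed FPKM of the 28 members of that list was 3144 to 3263 in KO SSt and 5207 to 5612 in KO CMS. Of these sums the lysozyme gene Lyz2 alone gave 1481 to 1580 and 2899 to 3072 FPKM. Ptprc, the pan-leukocyte gene encoding CD45, was at 16.3 to 29.9 FPKM, while the T cell gene Cd3e and the B cell gene Cd79b were at 0. In bulk RNA, fewer cells of a type and less RNA per cell cannot be told apart.

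Stretch was accompanied by changes in most expressed genes, about as often upwards as downwards. Genes of DNA replication and mitosis, contractile genes and matrix genes such as Tnc and Thbs1 fell. Genes of sterol and fatty acid synthesis, lysosomes, antioxidant defence, NF-kappaB feedback and the interferon response rose. In the edgeR test 3972 of 12888 genes (30.8%) were higher and 3952 (30.7%) lower in KO CMS at an adjusted p under 0.05. With a fold of at least 2 as well, which is what "called" means here, 1232 genes (9.56%) were higher and 1245 (9.66%) lower, 19.2% together. The median log2 fold change over all tested genes was -0.002. Changes of at least 4-fold numbered 378 upwards and 495 downwards among called genes, and 66 and 65 reached 16-fold. The FPKM of the groups did not overlap for 2463 of the 2477 called genes, against 71.4% of all tested genes. Without any scaling beyond library totals the median moved to -0.113, and the share of higher genes among those past the adjusted p was 40% in place of 50.1%. Gene lists are therefore described by their counts beside 30.8% and 30.7%, and by their median beside -0.002. Values after ± are standard errors (SE) of a log2 fold change, with 3 libraries in each group.

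**Figure D1:**
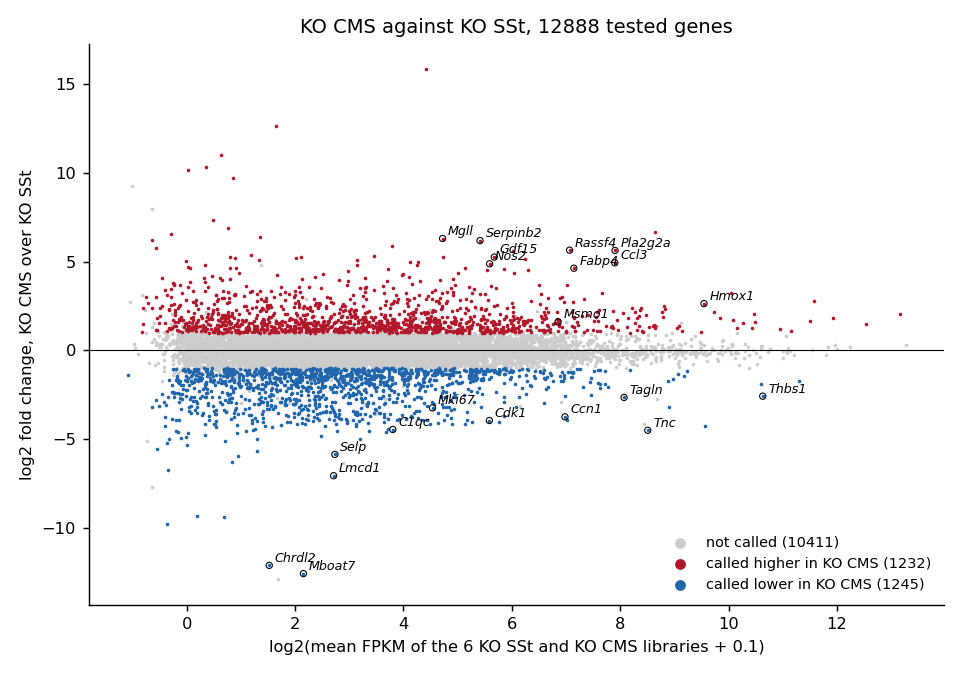
Each point is 1 of the 12888 tested genes, with log2 of the mean FPKM (plus 0.1) of the 6 KO SSt and KO CMS libraries on the x axis and the edgeR log2 fold change, KO CMS over KO SSt, on the y axis. Red and blue points are the 1232 genes called higher and the 1245 called lower, and ringed names are genes described in the text. Chrdl2 and Mboat7, at the foot, had 0 counts in KO CMS, so their fitted values are no bound.

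The 12 largest rises among genes with a gene symbol that is no clone name, a mean of at least 5 FPKM in the higher group and no overlap between the groups included lipid, secreted and interferon-induced genes. Mgll, the lipase that splits monoacylglycerols, was at 0.581, 0.805 and 0.730 FPKM in KO SSt and at 51.4, 54.3 and 50.1 FPKM in KO CMS. It rose by 6.29 ± 0.27 on the log2 scale (edgeR, adjusted p = 2.74e-07), from below 1 FPKM in each starved library to a narrow band in the stretched ones. The secreted phospholipase gene Pla2g2a was at 15.9, 8.14 and 6.68 FPKM in KO SSt and at 464, 426 and 517 FPKM in KO CMS, a rise of 5.62 ± 0.38 (adjusted p = 2.99e-06). Gdf15, a stress-induced cytokine of the TGF-beta superfamily, was at 2.94, 2.24 and 3.23 FPKM against 69.1, 122 and 106 FPKM, a rise of 5.25 ± 0.31 (adjusted p = 1.52e-06). In both of these genes the groups lay far apart, with KO CMS replicate 1 the lowest of its group for Gdf15. Others of this set, with log2 rises of 5.11 to 6.18, were Serpinb2 (a plasminogen activator inhibitor), Oasl (an interferon-induced gene), Rassf4, the fatty acid transporter Slc27a6, Chi3l1, the chemokine Cx3cl1, the transporter Slc6a12 and Enpp2 (autotaxin, the enzyme that makes lysophosphatidic acid).

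At the other end, 2 of the 12 genes with the largest falls by the same rule had 0 counts after stretch. Mboat7, an acyltransferase of phosphatidylinositol, had 1167, 870 and 303 counts in the KO SSt libraries and 0 in each KO CMS library. Its mean KO SSt level was 261-fold above what 3 counts in each KO CMS library would give. The gene also varied within other groups, at 2.95, 2.92 and 11.6 FPKM in KO FBS and 15.5, 4.17 and 12.3 FPKM in WT SSt. Chrdl2, a secreted BMP antagonist, had 611, 643 and 461 counts in KO SSt and 0 in KO CMS, a mean 190-fold above that level. Lmcd1, a LIM-domain transcriptional cofactor, was at 16, 11.9 and 10.5 FPKM in KO SSt and at 0.155, 0.0358 and 0.0620 FPKM in KO CMS. It fell by 7.05 ± 0.46 (adjusted p = 2.53e-06), and by 7.75 without KO CMS replicate 1. Selp, which encodes P-selectin, an adhesion molecule of platelets and endothelium, was at 13.2, 12.7 and 12.8 FPKM against 0.12, 0.171 and 0.312 FPKM (-5.85 ± 0.30). Both genes were below the filter of 1 FPKM in every stretched library. Others of the 12 largest falls were Rgs16, Krt7, the integrin gene Itga8, Tnc, the complement gene C1qc and 3 cell division genes, Racgap1, Troap and Mybl2, with log2 values between -5.00 and -4.43. Racgap1 was at 0.576, 0.415 and 1.82 FPKM in KO CMS, and its fall of 4.57 was 5.51 without KO CMS replicate 3.

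Cell division genes fell without exception in these lists. The study reports the other direction for cells: stretch raised proliferation of starved MSCs, read as uptake of the DNA label EdU. By the same label it reports more proliferating KO than WT cells under starvation. EdU uptake and RNA are unlike measures, and why they differ was not tested. All 40 tested genes of DNA replication fell (38 called, median log2 -2.53), and so did all 39 of mitosis (38 called, median -3.54). Mki67, the marker of cycling cells, was at 37.3, 44.2 and 44.7 FPKM in KO SSt and at 5.14, 3.84 and 3.48 FPKM in KO CMS. It fell by 3.23 ± 0.39 (edgeR, adjusted p = 0.000108), and every stretched library lay below every starved one. Cdk1, the kinase that starts mitosis, was at 89.7, 88.9 and 92.6 FPKM against 6.98, 4.84 and 4.53 FPKM (-3.94 ± 0.32, adjusted p = 8.5e-06). Its partner Ccnb1 was at 60.5, 69.7 and 72.5 FPKM against 5.2, 4.14 and 3.10 FPKM (-3.92 ± 0.40). Plk1, a kinase of the spindle, fell by 4.12 ± 0.32, and Anln, which builds the cleavage furrow, by 4.16 ± 0.27. In the replication list Mcm5, a subunit of the helicase that unwinds DNA, was at 39.5, 41.7 and 40.8 FPKM in KO SSt and at 3.05, 2.39 and 2.14 FPKM in KO CMS (-3.90 ± 0.32, adjusted p = 1.06e-05). Cdc6 and Orc1, which load that helicase on origins, fell by 4.27 ± 0.37 and 3.90 ± 0.30. Rrm2, which makes deoxynucleotides, fell by 2.65 ± 0.32. The members that fell least were Lig1, the ligase of lagging strands (22.3 to 23.6 FPKM against 12.9 to 15.7 FPKM), the polymerase clamp Pcna (114 to 124 against 53 to 56.9 FPKM) and Incenp, which fell by 0.96.

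Among the 22 tested genes of cell cycle entry and arrest, 14 fell and 6 rose (median log2 -0.96). Those that fell included Ccnd1, cyclin D1, at 126, 136 and 130 FPKM in KO SSt and 22.2, 23.8 and 20.0 FPKM in KO CMS (-2.46 ± 0.14, adjusted p = 1.53e-06). The S-phase cyclins Ccne1 and Ccne2 fell by 2.69 ± 0.18 and 4.14 ± 0.24, and E2f7 and E2f8, repressors of the E2F family that cycling cells make, by 4.65 ± 0.48 and 4.12 ± 0.28. The arrest genes moved the other way by less: Cdkn1a (p21) rose by 0.56 ± 0.08, from 94.8 to 97.1 FPKM in KO SSt to 120 to 136 FPKM, and Cdkn2a (p16) by 1.34 ± 0.21. Ribosome biogenesis, which dividing cells need, had 22 of 26 genes lower and none higher in this test (median -0.60). Nop58, a core protein of the nucleolar particles that modify ribosomal RNA, was at 65.2, 67.3 and 67.0 FPKM against 21.9, 21.6 and 20.6 FPKM (-1.53 ± 0.07). Ncl, nucleolin, fell by 0.96 ± 0.05. Without KO FBS replicate 1 or 3 in the fit, 1 gene of this list passed as higher.

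**Figure D2:**
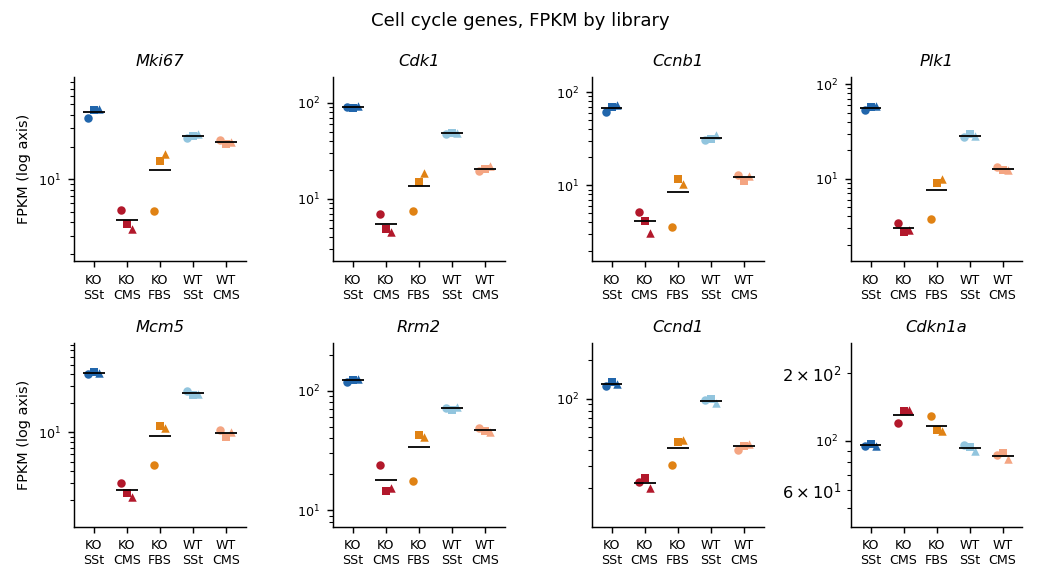
FPKM on a log axis of 8 cell cycle genes in KO SSt, KO CMS, KO FBS, WT SSt and WT CMS; each point is a library (circle, square and triangle for replicates 1, 2 and 3) and each bar a group mean of 3 libraries. In 7 of the 8 genes the lowest library is a KO CMS library, while Cdkn1a is higher in KO CMS than in KO SSt.

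Promoter sequence is shown for cell cycle genes because these lists moved as blocks. In RefSeq promoters of GRCr8, taken from 250 bases before to 50 after the gene start, 34 of the 40 replication genes and 32 of the 39 mitosis genes had an entry. The E2F letters TTTGGCGC, read on both strands, stood in 23.5% of the replication promoters and in 0.521% of all 27457 promoters, and a second form, TTTCCCGC, in 14.7% against 1.03%. The letters TTTGAA of the cell cycle homology region (CHR) stood in 71.9% of the mitosis promoters and in 18.1% of all promoters. These are matches of letters, not sites. Of the windows shown, with the match in capitals, that of Mcm5 is on the plus strand at chr19:13488564-13488651 and begins its match 209 bases before the gene start, that of Cdk1 on the plus strand at chr20:19265181-19265266 (72 bases before) and that of Mki67 on the minus strand at chr1:199952665-199952750 (117 bases before).
Mcm5: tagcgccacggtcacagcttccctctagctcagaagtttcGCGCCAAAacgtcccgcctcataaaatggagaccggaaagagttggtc
Cdk1: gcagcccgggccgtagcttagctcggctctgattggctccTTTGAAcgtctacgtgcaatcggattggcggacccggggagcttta
Mki67: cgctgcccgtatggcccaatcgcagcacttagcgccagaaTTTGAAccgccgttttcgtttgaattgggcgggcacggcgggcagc
The Mcm5 window holds the E2F letters on the opposite strand, and the Mki67 window holds TTTGAA again after the marked match.

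Core genes of the PI3K-Akt-mTOR pathway, which the study examined for its link to miR-337, moved both ways. Of 37 tested core members 18 rose and 10 fell, beside 30.8% and 30.7% of all tested genes. Among these 37 core members 4 were called higher and 2 lower, beside 9.56% and 9.66% of all tested genes, and the median was 0.097. Irs1, the adaptor that carries insulin signals to PI3K, was at 2.17, 2.92 and 2.77 FPKM in KO SSt and at 1.75, 1.78 and 1.64 FPKM in KO CMS. It fell by 0.49 ± 0.13 (edgeR, adjusted p = 0.0106), with the lowest starved library above the highest stretched one. Akt1 was at 133, 129 and 130 FPKM against 93.8, 95.5 and 94.0 FPKM (-0.36 ± 0.04), and Mtor fell by 0.23 ± 0.06, less than the 2-fold limit in both cases. The catalytic subunits of PI3K diverged. Pik3cb, p110-beta, was at 4.19, 3.73 and 4.31 FPKM in KO SSt and at 17.5, 20.0 and 20.8 FPKM in KO CMS (2.36 ± 0.23, adjusted p = 2.85e-05), whereas Pik3cd, p110-delta, which leukocytes express, fell by 1.10 ± 0.21. Among genes known to restrain the pathway, Trib3, a pseudokinase that binds AKT, rose from 5.57 to 6.16 FPKM to 17.2 to 20.6 FPKM (1.82 ± 0.08), and the sestrins Sesn1 and Sesn2, which restrain mTORC1, by 1.26 ± 0.13 and 1.17 ± 0.07. In the wider PI3K-Akt pathway as annotated in the tables by KEGG, 73 of 244 tested genes rose and 96 fell. There 26.6% were called in either direction, against 19.2% of all tested genes, and the median was -0.078. The study reports that changes of PI3K-Akt genes seen in WT cells were essentially absent in KO cells. Its set of genes was not compared here.

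Ligand and receptor genes moved both ways. Of 37 growth factor genes 18 fell and 12 rose (median -0.50). Inhba, whose product forms activin A, was at 258, 247 and 225 FPKM in KO SSt and at 11.0, 16.9 and 16.7 FPKM in KO CMS (-3.92 ± 0.37, adjusted p = 2.36e-05). Hbegf, a ligand of the EGF receptor, was at 34.6, 31.6 and 31.4 FPKM against 2.38, 2.35 and 2.37 FPKM (-3.67 ± 0.16). Tgfb3 fell by 2.58 ± 0.26 and the BMP antagonist Grem1 by 1.42 ± 0.07, from 848 to 882 FPKM to 281 to 324 FPKM. Upwards went the angiopoietin gene Angpt1 (2.65 ± 0.28) and the angiopoietin-like gene Angptl4 (3.16 ± 0.37), beside Gdf15. Of 29 receptors 11 rose and 11 fell, beside 30.8% and 30.7% of all tested genes. Pdgfra, a PDGF receptor and stromal marker, was at 37.2, 37.2 and 38.0 FPKM in KO SSt and at 165, 144 and 157 FPKM in KO CMS (2.16 ± 0.06, adjusted p = 5.73e-08). Nrp1, a co-receptor of VEGF, rose by 1.97 ± 0.08, Met, the HGF receptor, by 1.46 ± 0.39, and Igf1r fell by 0.48 ± 0.08.

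Most smooth muscle contractile genes fell in the stretched libraries. Among 13 tested members 12 fell, each of them called, and 1 rose (median -2.52). Tagln, transgelin, was at 434, 480 and 492 FPKM in KO SSt and at 73.7, 68.0 and 67.0 FPKM in KO CMS (-2.64 ± 0.09, adjusted p = 1.02e-07). Acta2, smooth muscle actin, was at 49.7, 59.3 and 70.2 FPKM against 10.3, 8.85 and 9.75 FPKM (-2.52 ± 0.18), and the myosin light chain Myl9 fell by 3.00 ± 0.14. The exception was Myh11, smooth muscle myosin, at 2.11 to 2.47 FPKM against 2.91 to 4.62 FPKM (0.95 ± 0.22). Of 24 genes for YAP, TEAD factors and their targets 17 fell and 3 rose (median -0.40). Ccn1, a matricellular YAP target, was at 238, 242 and 229 FPKM in KO SSt and at 18.8, 15.2 and 15.4 FPKM in KO CMS (-3.73 ± 0.09, adjusted p = 3.69e-08). Ccn2 fell by 1.80 ± 0.33, with KO CMS replicate 1 at 94.8 FPKM above the other stretched libraries, at 66.6 and 58.8 FPKM. F3, tissue factor, fell by 2.95 ± 0.06. The TEAD letters CATTCC stood in 41.2% of the 17 promoters of this list against 13.9% of all promoters, among them that of Ccn1, shown for its minus-strand window at chr2:237225757-237225842, with the match 113 bases before the gene start.
Ccn1: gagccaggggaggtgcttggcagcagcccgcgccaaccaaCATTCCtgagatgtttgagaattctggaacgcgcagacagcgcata

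Yap1 and Piezo1 themselves did not pass the test. Yap1 was at 46.7, 49.5 and 48.9 FPKM in KO SSt and at 36.1, 40.2 and 41.5 FPKM in KO CMS. Its log2 value of -0.19 ± 0.09 did not pass (edgeR, adjusted p = 0.105), although the groups did not overlap, and it passed without KO FBS replicate 1 in the fit (-0.19, adjusted p = 0.0323). Tead1 and Tead3 fell by 0.25 ± 0.06 and 0.52 ± 0.05, and Tead4, at 1.48 to 1.82 FPKM against 0.451 to 0.619 FPKM, by 1.51 ± 0.23. Piezo1, the stretch-gated cation channel, was at 57.1, 59.9 and 56 FPKM in KO SSt and at 55.6, 69.8 and 70.2 FPKM in KO CMS, with an overlap from KO CMS replicate 1. Its value of 0.29 ± 0.14 did not pass (adjusted p = 0.112), but did without KO CMS replicate 1 (0.40, adjusted p = 0.0435) or KO FBS replicate 1 (0.29, adjusted p = 0.0217). Pkd2, the calcium channel polycystin-2, fell by 1.62 ± 0.05, Trpc6 by 2.08 ± 0.26, and Trpv2 rose by 0.89 ± 0.12 from 61.1 to 63.4 FPKM to 100.5 to 111 FPKM.

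Most adhesion genes that passed the test fell. Of 26 genes of integrins and focal adhesions 15 fell and 4 rose (median -0.58). Itgb1, the beta subunit shared by most integrins, was at 482, 486 and 486 FPKM against 278, 276 and 275 FPKM (-0.70 ± 0.04, adjusted p = 1.78e-06), and Vcl, vinculin of focal adhesions, fell by 1.66 ± 0.08. Itga4, a subunit of a fibronectin and VCAM-1 receptor, rose from 1.03 to 1.35 FPKM to 4.69 to 5.98 FPKM (2.31 ± 0.31). Immediate early factors, which respond to growth signals within minutes, had 14 of 25 lower and 8 higher. Egr1 fell by 1.45 ± 0.13 and the orphan receptor Nr4a1 by 4.26 ± 0.22, while Klf4 was at 28.8, 27.8 and 28.6 FPKM in KO SSt and at 98.3, 103 and 104 FPKM in KO CMS (1.96 ± 0.05) and Atf3 rose by 2.91 ± 0.17.

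In the matrix, Tnc and Thbs1 fell strongly, while the fibrillar collagens Col1a1 and Col3a1 did not pass the test. Tnc, the adhesion-modulating matrix protein tenascin C, was at 770, 675 and 654 FPKM in KO SSt and at 37.8, 24.1 and 24.7 FPKM in KO CMS (-4.49 ± 0.20), and Thbs1, thrombospondin 1, at 2780, 2752 and 2707 FPKM against 499, 394 and 390 FPKM (-2.57 ± 0.12). In both genes the highest stretched library was below the lowest starved one. Decorin, Dcn, went the other way, from 599 to 773 FPKM to 1748 to 1830 FPKM (1.54 ± 0.14), as did Clec3b, tetranectin (3.65 ± 0.33), and Olfml2a (5.06 ± 0.32). Over the 40 other matrix proteins 19 rose and 13 fell (median 0.23). Among 21 collagens 3 rose and 8 fell, and 5 fell without KO CMS replicate 2. Col1a1, the main collagen of bone, was at 1694, 1774 and 1833 FPKM in KO SSt and at 2036, 1595 and 1533 FPKM in KO CMS, on both sides of the starved libraries. Its value was 0.07 ± 0.15 (adjusted p = 0.700), and -0.06 without KO CMS replicate 1. Col3a1 also overlapped between the groups (0.26 ± 0.20, adjusted p = 0.270).

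Sterol synthesis changed as a block in the upward direction. All 24 tested genes of sterol synthesis and uptake rose, 19 of them called, with a median of 1.64 (log2). Insig1, which holds back the sterol-regulated factor SREBP, was at 35.9, 32.2 and 33.4 FPKM in KO SSt and at 177, 165 and 153 FPKM in KO CMS (2.39 ± 0.06, adjusted p = 3.92e-08). Lss, which closes the sterol rings, was at 16.9, 16.8 and 16.1 FPKM against 92.2, 92 and 85.1 FPKM (2.54 ± 0.07), and Msmo1, a later enzyme, at 60.5, 57.2 and 64.0 FPKM against 177, 170 and 166 FPKM (1.60 ± 0.07). The groups stood well apart in each. Srebf2, which encodes SREBP-2, rose by 0.84 ± 0.05, below the 2-fold limit. The sterol regulatory letters TCACNCCAC, on both strands, were found in 0 of the 16 promoters with an entry and in 1.13% of all. Fatty acid synthesis had 12 of 13 genes higher and none lower (median 1.15). Acss2, which makes acetyl-CoA from acetate, was at 5.68, 5.49 and 6.45 FPKM in KO SSt and at 61.0, 52.4 and 49.2 FPKM in KO CMS (3.31 ± 0.13, adjusted p = 1.87e-07). The desaturases Scd and Scd2 rose by 3.20 ± 0.14 and 2.01 ± 0.06. Fasn, the synthase itself, rose by 0.39 ± 0.06, from 39.3 to 39.5 FPKM to 45.4 to 49.6 FPKM.

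**Figure D3:**
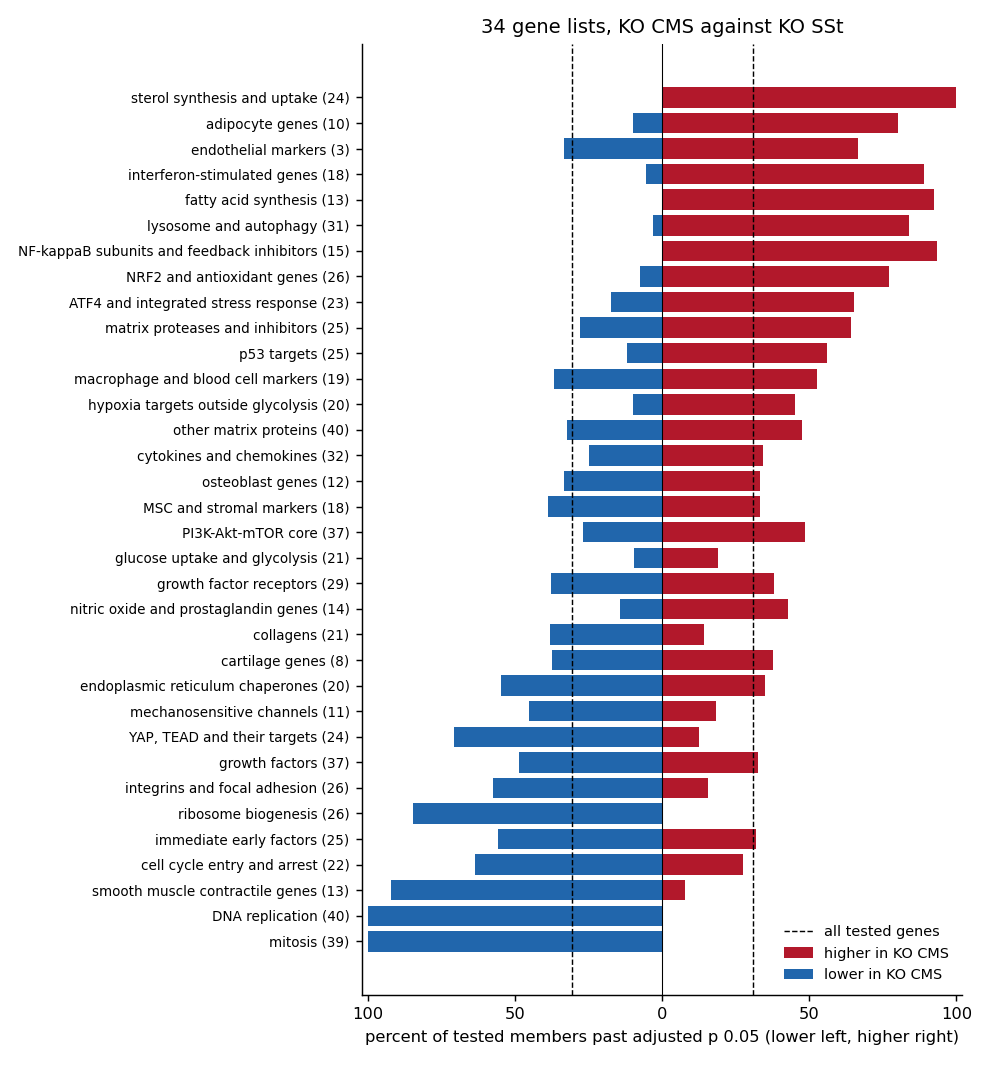
Share of the tested members of each of 34 gene lists that passed an adjusted p of 0.05 as higher (red, to the right) or lower (blue, to the left) in KO CMS than in KO SSt, with the number tested in brackets and lists ordered by their median log2 fold change. Dashed lines mark 30.8% and 30.7%, the shares over all 12888 genes; sterol synthesis reaches 100 percent to the right, DNA replication and mitosis 100 percent to the left.

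Some inflammatory genes rose and others fell, and the 3 stretched libraries were spread widely. Nos2, inducible nitric oxide synthase, was at 4.68, 2.87 and 2.72 FPKM in KO SSt and at 40.4, 109 and 129 FPKM in KO CMS, a rise of 4.87 ± 1.16 (edgeR, adjusted p = 0.00546). Ccl3, a macrophage chemokine, was at 19.9, 14.5 and 14.7 FPKM against 228, 515 and 641 FPKM (4.93 ± 0.77, adjusted p = 0.000498). Serpinb2 was at 1.75, 0.966 and 1.04 FPKM against 23.6, 104 and 124 FPKM (6.18 ± 1.38, adjusted p = 0.00393). KO CMS replicate 1 was the lowest stretched library in each, and still above all starved libraries. Of 32 cytokines and chemokines 11 rose and 8 fell (median 0.20), beside 30.8% and 30.7% of all tested genes. These counts rest on few libraries: 6 rose without KO SSt replicate 3 or KO CMS replicate 3, 7 without KO SSt replicate 1 or 2 or KO CMS replicate 2, and 4 or 5 fell without KO SSt replicate 1 or 2 or KO CMS replicate 1 or 2. The most abundant, Ccl2, a monocyte chemokine, was at 2541, 2340 and 2404 FPKM in KO SSt and at 1216, 1753 and 2078 FPKM in KO CMS (-0.42 ± 0.25, adjusted p = 0.178). Il6 was at 146, 121 and 111 FPKM against 40, 41.7 and 49.4 FPKM (-1.42 ± 0.42, adjusted p = 0.0158), with adjusted p = 0.0519 and 0.0504 without KO CMS replicate 1 or 2. Il33, an alarmin, was at 47.0, 40.2 and 39.7 FPKM against 3.01, 1.78 and 1.90 FPKM (-4.14 ± 0.20).

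NF-kappaB genes, which include the feedback inhibitors that the factor itself induces, had 14 of 15 members higher and none lower (median 0.90). Nfkbia, the inhibitor I-kappaB-alpha, was at 49.0, 38.3 and 40.6 FPKM in KO SSt and at 66.9, 92.2 and 105 FPKM in KO CMS (1.16 ± 0.29, adjusted p = 0.00724). Tnfaip3, the inhibitor A20, was at 5.57, 5.78 and 5.61 FPKM against 12.3, 21.6 and 23.6 FPKM (1.88 ± 0.39, adjusted p = 0.00277). Traf1 and Birc3, adaptors of TNF receptors, rose by 2.21 ± 0.33 and 1.53 ± 0.38, and Rela, the p65 subunit, by 0.50 ± 0.12. KO CMS replicate 1 was again the lowest stretched library. Of 14 genes for nitric oxide and prostaglandins 6 rose and 2 fell. Without KO FBS replicate 1 in the fit 6 fell, and 4 without KO FBS replicate 3. Arg1, which competes for the arginine that NOS2 uses, fell by 1.33 ± 0.26 from 37.8 to 46.1 FPKM to 12.3 to 19.9 FPKM.

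Of 25 genes for matrix proteases and their inhibitors 16 rose and 7 fell (median 0.68). Mmp3, stromelysin, was at 291, 202 and 167 FPKM in KO SSt and at 994, 2279 and 2427 FPKM in KO CMS (3.22 ± 0.60, adjusted p = 0.00143). Mmp13, the main interstitial collagenase of the rat, was at 18.3, 12.6 and 10.8 FPKM against 85.9, 197 and 218 FPKM (3.70 ± 0.72, adjusted p = 0.00184), and the gelatinase Mmp9 rose by 2.99 ± 0.54. The plasminogen activator Plau fell by 2.62 ± 0.24. Among 18 interferon-stimulated genes 16 rose and 1 fell (median 1.35), the latter not without KO SSt replicate 2 or 3 or KO CMS replicate 2 or 3. Ifit2, an RNA-binding antiviral protein, was at 2.10, 2.65 and 2.55 FPKM in KO SSt and at 15.9, 13.9 and 13.5 FPKM in KO CMS (2.68 ± 0.10), and Ifi27 rose by 1.29 ± 0.07 from 72.5 to 76.9 FPKM to 167 to 174 FPKM. The letters GAAANNGAA, part of a longer interferon motif, stood in 61.5% of the 13 promoters of this list against 9.5% of all.

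Markers of macrophages changed in both directions. Of 19 tested markers of macrophages and blood cells 10 rose and 7 fell (median 0.54). Cd68 was at 148, 134 and 142 FPKM in KO SSt and at 483, 528 and 515 FPKM in KO CMS (1.96 ± 0.07, adjusted p = 1.61e-07), Lyz2, lysozyme, at 1491, 1481 and 1580 FPKM against 2899, 3064 and 3072 FPKM (1.10 ± 0.12), and Adgre1, which encodes F4/80, at 3.20, 2.84 and 2.85 FPKM against 57.7, 62.2 and 82.4 FPKM (4.62 ± 0.56). The complement genes of resident macrophages fell: C1qa was at 46.1, 44.7 and 46.5 FPKM against 3.37, 4.22 and 3.42 FPKM (-3.52 ± 0.34, adjusted p = 2.59e-05), and the mannose receptor Mrc1 fell by 1.58 ± 0.27. Ptprc rose by 0.87 ± 0.07. Of the 28 markers in the table, Marco, Cd3e, Cd79b, Mpo and S100a9 were at 0 in all 6 libraries. What part these cells had in the inflammatory and lysosomal genes was not tested.

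**Figure D4:**
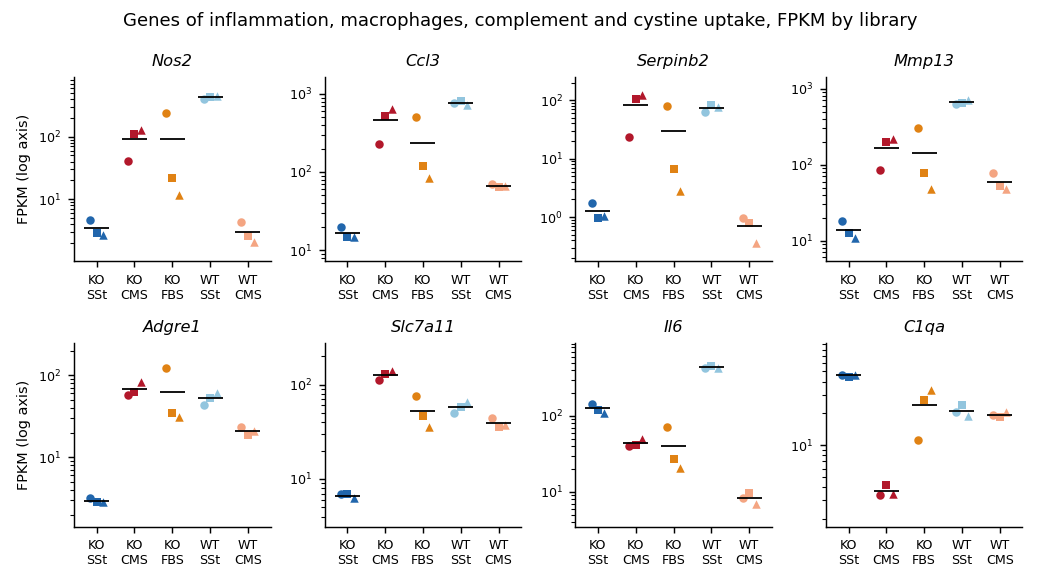
FPKM on a log axis of 8 genes in KO SSt, KO CMS, KO FBS, WT SSt and WT CMS; each point is a library (circle, square and triangle for replicates 1, 2 and 3) and each bar a group mean of 3 libraries. Nos2, Ccl3, Serpinb2 and Mmp13 are low in KO SSt and WT CMS and high in KO CMS and WT SSt, and KO FBS replicate 1 lies above the KO CMS mean in 3 of these 4.

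Glycolysis did not move as a block. Of 21 genes of glucose uptake and glycolysis 4 rose and 2 fell (median 0.02), and 7 rose without KO FBS replicate 1 in the fit. Slc2a1, the basal glucose transporter, was at 121, 110 and 104 FPKM in KO SSt and at 187, 215 and 230 FPKM in KO CMS (1.02 ± 0.27, adjusted p = 0.00842). Pfkfb3, which speeds glycolysis through fructose 2,6-bisphosphate, was at 11.9, 5.91 and 5.18 FPKM against 54.1, 32.6 and 57.6 FPKM (2.76 ± 0.38). Ldha, lactate dehydrogenase, fell from 1460 to 1633 FPKM to 760 to 862 FPKM (-0.81 ± 0.15, adjusted p = 0.00124). Among 20 other hypoxia targets 9 rose and 2 fell (median 0.31), with 5 lower without KO FBS replicate 1 and 1 without KO SSt replicate 1 or 2 or KO CMS replicate 2 or 3. Ndrg1 was at 63.9, 56.2 and 56.5 FPKM against 170, 179 and 177 FPKM (1.69 ± 0.11), Epas1, which encodes HIF-2-alpha, rose by 1.52 ± 0.26, and the carbonic anhydrase gene Car9 fell by 1.90 ± 0.27. The hypoxia letters ACGTG stood in 47.4% of 19 glycolysis promoters and 70.6% of 17 promoters of the other targets, against 19.7% of all.

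Most genes of stress responses and lysosomes rose. In the ATF4 list, the program that cells turn on when amino acids or protein folding fail, 15 of 23 rose and 4 fell (median 0.75), with 2 lower without KO SSt replicate 2 or 3 or KO CMS replicate 2 or 3. Atf4 was at 106, 109 and 109 FPKM in KO SSt and at 217, 230 and 229 FPKM in KO CMS (1.17 ± 0.05, adjusted p = 1.97e-07), and its target Ddit3 (CHOP) rose by 1.80 ± 0.08. Slc7a11, the cystine importer that feeds glutathione synthesis, was at 6.89, 6.90 and 6.24 FPKM against 110, 128 and 138 FPKM (4.34 ± 0.28, adjusted p = 2.43e-06). The letters TGATGNAA of ATF4 stood in 18.2% of 22 promoters of this list against 3.82% of all. Of 26 NRF2 and antioxidant genes 20 rose and 2 fell (median 0.81). Hmox1, heme oxygenase 1, was at 229, 221 and 215 FPKM in KO SSt and at 1215, 1276 and 1332 FPKM in KO CMS (2.63 ± 0.19, adjusted p = 4.96e-06), and Prdx1, a peroxidase, rose by 1.03 ± 0.09. Mt1, a metallothionein, fell by 1.30 ± 0.20. Lysosome and autophagy genes had 26 of 31 members higher and 1 lower (median 0.98). Sqstm1, the autophagy receptor p62, was at 141, 144 and 141 FPKM against 673, 806 and 777 FPKM (2.51 ± 0.10), and the protease genes Ctsd and Ctsb rose by 1.62 ± 0.06 and 1.21 ± 0.07. Tfeb, the factor that drives lysosomal genes, rose by 1.78 ± 0.14 from 4.35 to 4.58 FPKM to 13.6 to 15.4 FPKM.

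Chaperones of the endoplasmic reticulum did not share this rise: 11 of 20 fell and 7 rose (median -0.17). Hsp90b1 fell by 0.45 ± 0.06 and Herpud1, of the degradation pathway, rose by 1.47 ± 0.06. Of 25 p53 targets 14 rose and 3 fell (median 0.56), with 1 lower without any 1 of the KO SSt libraries. Gadd45a was at 29.6, 33.7 and 32.2 FPKM against 96.7, 113 and 105 FPKM (1.83 ± 0.08), while Trp53 itself fell by 0.46 ± 0.06.

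Most adipocyte genes rose, while osteoblast genes rose and fell about as often as all tested genes did. Of 10 tested adipocyte genes 8 rose and 1 fell (median 1.44). Fabp4, a fatty acid carrier of adipocytes and macrophages, was at 10.8, 11.9 and 12.8 FPKM in KO SSt and at 258, 311 and 244 FPKM in KO CMS (4.62 ± 0.58, adjusted p = 0.000136). Plin2, which coats lipid droplets, was at 67.3, 67.3 and 62.5 FPKM against 199, 222 and 229 FPKM (1.83 ± 0.07), and the adipogenic factor Cebpa rose by 1.29 ± 0.13. Among 12 osteoblast genes 4 rose and 4 fell (median 0.18), near the 30.8% and 30.7% of all tested genes. Runx2, the factor that commits cells to bone, was at 4.92, 5.64 and 4.55 FPKM in KO SSt and at 5.58, 5.24 and 5.13 FPKM in KO CMS, with overlapping groups (0.19 ± 0.13, adjusted p = 0.246). Spp1, osteopontin, rose by 0.81 ± 0.11. Of 8 cartilage genes 3 rose and 3 fell: Prg4, lubricin, rose by 1.83 ± 0.19 and Acan, aggrecan, fell by 3.86 ± 0.34. Among 18 stromal markers 6 rose and 7 fell (median 0.14), beside the same 30.8% and 30.7%. Cxcl12 rose by 0.94 ± 0.12, whereas Thy1 fell by 0.58 ± 0.05 and Twist1 by 1.59 ± 0.06. Endothelial markers were mostly under the filter, with 3 of 13 tested, of which 2 rose and 1 fell. Tie1 was among those that rose (1.42 ± 0.07).

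Fewer genes separated stretch from serum than stretch from starvation, in a comparison of KO CMS with KO FBS that uses the KO CMS libraries again. KO CMS was higher for 868 genes (6.73%) and lower for 1042 (8.09%) at an adjusted p under 0.05, and 73 (0.566%) and 264 (2.05%) were called. Without KO FBS replicate 1 the called genes were 156 higher and 398 lower, 554 together. They numbered 198 without KO CMS replicate 3, 213 without KO CMS replicate 2 and 215 without KO FBS replicate 3. Cell division genes were lower under stretch: 25 of 40 replication genes and 25 of 39 mitosis genes were below KO FBS, and 39 and 38 without KO FBS replicate 1. In both fits 1 replication gene passed as higher, which was Lig1 (0.43, adjusted p = 0.0077, and 0.43, adjusted p = 0.0080). Mki67 in KO FBS was at 5.06, 14.8 and 17.1 FPKM, of which replicate 1 lay within the range of the stretched libraries (-1.51, adjusted p = 0.028, and -1.87, adjusted p = 0.00010, without it). Antioxidant and ATF4 genes were higher under stretch, with 17 of 26 and 12 of 23 members past the adjusted p and 1 and 0 lower. Without replicate 1 these were 19 and 14 higher and 2 and 2 lower. Hmox1 was at 620, 404 and 369 FPKM in KO FBS, below all stretched libraries (1.5, adjusted p = 0.0017, and 1.79, adjusted p = 9.34e-06, without replicate 1). Plin2 was at 88.1, 88.1 and 82.4 FPKM (1.38, adjusted p = 7e-05, and 1.41, adjusted p = 2.99e-05). Of the 24 sterol genes 3 were higher and 0 lower, or 3 and 4 without replicate 1. C1qa, at 11.3, 27.0 and 33.1 FPKM in KO FBS, was lower under stretch (-2.63, adjusted p = 0.0017, and -2.96, adjusted p = 1.12e-05, without replicate 1). Nos2 was at 239, 22 and 11.8 FPKM in KO FBS, and its value was 0.05 (adjusted p = 0.98). Replicate 1 was above every stretched library and replicates 2 and 3 below, and without replicate 1 the gene was higher under stretch by 2.53 ± 0.52 (adjusted p = 0.0094).

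Whether the response to stretch differed between KO and WT cells was tested as a difference of differences over 13194 genes of all 18 libraries, which uses the KO libraries above again. At an adjusted p under 0.05 the KO response lay above the WT response for 2874 genes (21.8%) and below it for 3090 (23.4%), and with a 2-fold limit for 895 (6.78%) and 878 (6.65%). Of the 2477 genes called in KO cells 1048 also differed from WT past both limits. The KO and WT values had the same sign and the KO value was the larger in size for 619 of these, the WT value was the larger for 106, and the signs were opposite for 323. These genes were selected by the size of their KO change, which favours a larger KO value. No such count was made from genes called in WT, so these numbers do not show which genotype responded more. The genotypes are in separate tables, and a difference of culture or preparation between them cannot be told apart from the genotype. Most cell division genes fell in both genotypes, and nearly all of them further in KO. In WT 31 of 39 mitosis genes and 37 of 40 replication genes passed as lower and none as higher. All 39 mitosis genes responded more negatively in KO than in WT, 38 of them past the 2-fold limit, and 39 of 40 replication genes did, 31 past it. The list medians were -3.54 in KO against -0.91 in WT for mitosis and -2.53 against -1.07 for replication. Mki67 was at a mean of 25.2 FPKM in WT SSt and 22.4 FPKM in WT CMS, a WT value of -0.20 that did not pass (adjusted p = 0.56), and its KO response lay 3.03 ± 0.40 below that (edgeR, adjusted p = 2.4e-05).

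Some inflammatory genes went opposite ways in KO and WT cells, and most inflammatory and hypoxia genes of the lists had a KO response above the WT response. Nos2 fell in WT from a mean of 427 to 3.00 FPKM and rose in KO, a difference of 12.06 ± 1.35 (adjusted p = 6.2e-06). Ccl3 (mean 768 to 67.0 FPKM in WT), Serpinb2 (74.9 to 0.713), Mmp13 (662 to 59.2) and Adgre1 (52.0 to 21.0) likewise fell in WT and rose in KO. The levels of Nos2 in KO SSt, 2.72 to 4.68 FPKM, were thus near those of WT CMS rather than of WT SSt. Of 97 genes called in both genotypes in opposite directions, 77 were higher in KO CMS and lower in WT CMS and 20 the reverse. By list, the KO response lay above the WT response for 24 of 32 cytokines and chemokines (22 past 2-fold), 14 of 15 NF-kappaB genes (10), 18 of 21 glycolysis genes (13) and 19 of 20 other hypoxia targets (13). Glycolysis genes had a median of -0.96 in WT and 0.02 in KO, and the other hypoxia targets -1.34 and 0.31. Slc2a1, at a mean of 236 FPKM in WT SSt and 93.4 FPKM in WT CMS, differed by 2.39 ± 0.29 (adjusted p = 1.1e-05). Met, Mmp3, Mmp9, Epas1, Tnfaip3, Birc3 and Nfkbia also fell in WT and rose in KO. Il6 fell in both, in WT from a mean of 441 to 8.29 FPKM, with a KO response 4.34 ± 0.48 above the WT response.

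Sterol genes rose in both genotypes. Of 24 sterol genes all rose in WT as well, with a median of 1.57 against 1.64 in KO, and although 7 were higher and 4 lower in KO past the adjusted p, 0 differed by 2-fold. Tnc (-4.93 in WT, difference 0.44 ± 0.19, adjusted p = 0.067) and Mgll (5.60, 0.70 ± 0.42, adjusted p = 0.19) moved in the same direction in both, and their differences did not pass. Irs1 had a WT value of -0.42, and the difference of -0.06 ± 0.15 did not pass (adjusted p = 0.77). In the PI3K-Akt-mTOR core 12 of 37 genes responded above and 6 below WT, with 2 each past 2-fold. Pik3cb did not rise in WT (mean 12.2 to 11.1 FPKM), and its difference was 2.53 ± 0.25 (adjusted p = 2.4e-06). Ccn2 rose in WT from a mean of 103 to 208 FPKM and fell in KO, a difference of -2.78 ± 0.36, and C1qa, at means of 21.2 and 19.4 FPKM in WT, differed by -3.37 ± 0.36. Slc7a11, at means of 58.0 and 38.8 FPKM in WT, differed by 4.95 ± 0.31 in the upward direction.

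**Figure D5:**
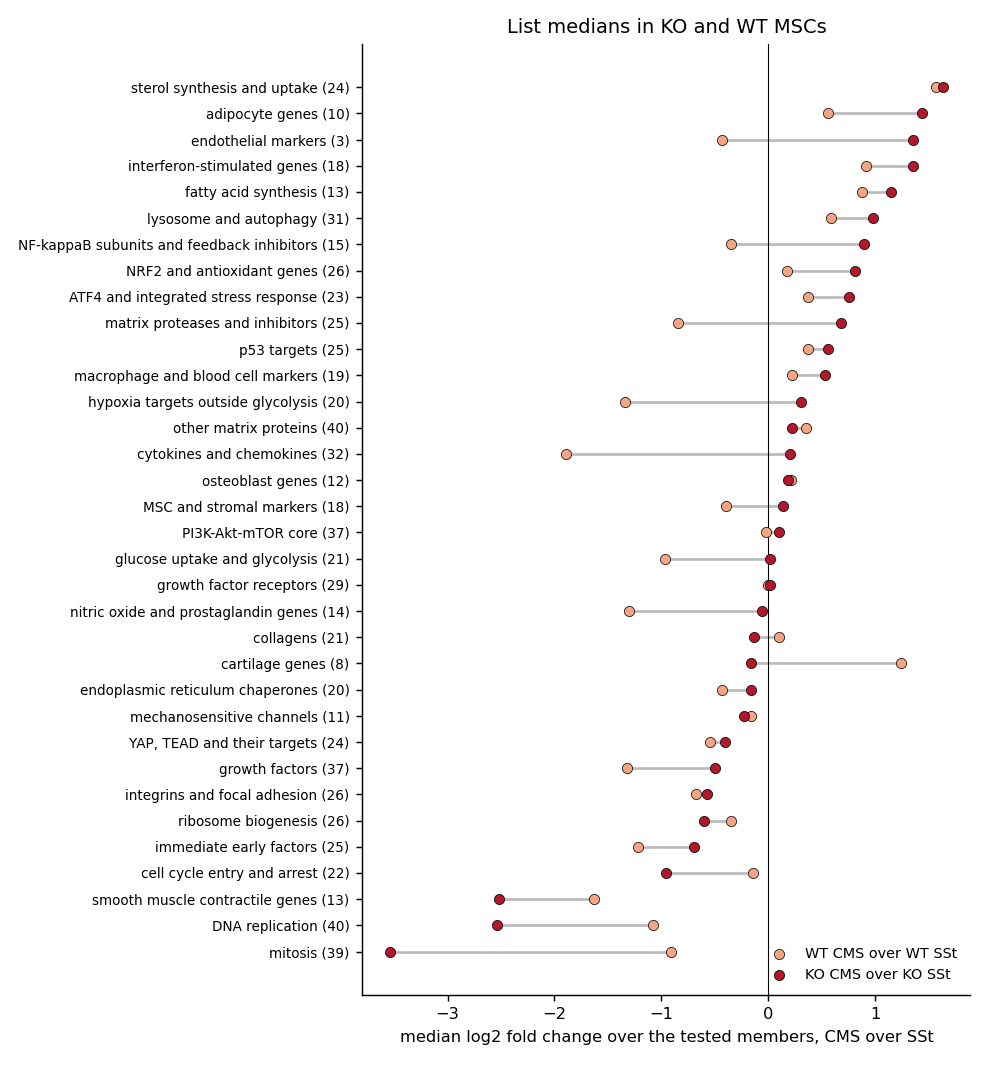
Median log2 fold change, CMS over SSt, over the tested members of each of 34 gene lists in KO MSCs (red) and WT MSCs (pale), joined by a line, with the number tested in brackets. The points nearly meet for sterol synthesis (1.64 and 1.57) and lie far apart for mitosis (-3.54 and -0.91), cytokines and hypoxia targets.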

How the data were processed

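RNA-seq of 18 libraries was deposited by the authors as a table per genotype with 32623 rat Ensembl genes. The authors give a count of reads per gene, as whole numbers and not normalised. Beside each count the authors deposited the FPKM, normalised for depth and transcript length, in which 0.0001 stands for no reads and was read here as 0. Bowtie 0.12.2 and mm10, a mouse genome, appear in the submitters' processing notes, the gene identifiers are of rat, and how these fit together is not given in the sources used here. No gene position from the tables is printed.

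Counts were tested with edgeR 4.0.16 (TMM scaling, quasi-likelihood F test, Benjamini-Hochberg adjustment over all tested genes). KO groups were fitted on the 9 KO libraries, and the difference from WT on all 18. Standard errors came from the F statistic. Replicate numbers of the titles did not pair the libraries, so no block was used. The test was checked on simulated counts in which 200 genes were changed. Far more genes passed here, so the simulation does not check the scaling under such broad change. Members and lists were chosen with earlier results of these data known. Named genes were the 12 largest rises and 12 largest falls among called genes with a symbol that is no clone name, a mean of at least 5 FPKM and no overlap, the 3 most changed called and 3 most abundant members of each list, genes the paper names, and 6 genes per direction of the largest difference from WT. Not every such gene is named, and some are not reported here. Chosen outside this rule, after their values were seen, were Plk1, Incenp, Mcm5, Lig1, Ccne1, Cdkn2a, Pik3cd, Sesn2, Igf1r, Hbegf, Angptl4, Angpt1, Tgfb3, Nrp1, Met, Acta2, Myl9, Myh11, Vcl, Thbs1, Plau, Dcn, Clec3b, Egr1, Srebf2, Fasn, Il6, Il33, Mmp9, Rela, Arg1, C1qa, Mrc1, Ldha, Epas1, Ddit3, Mt1, Hsp90b1, Trp53, Cebpa, Cxcl12 and Twist1. Alternatives were DESeq2 1.42.0, limma 3.58.1 on log2(FPKM + 0.1, 1 or 5), other scalings, filters and limits, a replicate block, smaller and larger fits and each library left out. Of 907 list entries 888 were in the table and 767 tested. Promoters and miRNAs are from RefSeq, build GRCr8. Calculations used R 4.3.3 and Python 3.11.15.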

Additional observations from a re-analysis of the deposited data

Results flagged for a closer look

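These results stand out because the response to stretch differed between KO and WT cells in the edgeR test of that difference. It did so for 1773 genes past an adjusted p of 0.05 and 2-fold. Among the genes named above, 13 were called in both genotypes in opposite directions, each higher in KO CMS and lower in WT CMS. Their KO response exceeded the WT response, on the log2 scale, by 12.918 for Serpinb2, 12.056 for Nos2, 8.478 for Ccl3, 7.208 for Mmp13, 5.953 for Adgre1, 5.609 for Mmp3 and 5.608 for Mmp9. For the other 6 the difference was 4.093 for Met, 3.56 for Epas1, 3.085 for Tnfaip3, 3.055 for Birc3, 2.389 for Slc2a1 and 2.375 for Nfkbia. Each group has 3 libraries, too few to test a single library as an outlier within its group.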

How the results depend on the processing

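Genes called between KO CMS and KO SSt numbered 2477, and 2411 to 2494 when a library was left out. With the adjusted p alone they were 7924, and with limma and a pseudocount of 5, which shrinks low genes, 1000. Between KO CMS and KO FBS the 1910 genes past the adjusted p alone, 164 at an adjusted p of 0.01, 216 with a filter of 5 FPKM, 147 and 47 with limma at pseudocounts of 1 and 5, and 206 in a fit of those 6 libraries stood beside the 73 and 264 called, and 198 to 554 with a library left out. Without scaling 31% of the genes past the adjusted p were higher in this comparison, against 45.4%. The response differed between KO and WT for 5964 genes with the adjusted p alone and 638 with limma at a pseudocount of 5, against 1773 (1700 to 1880 with a library left out).

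The sign of Col1a1 changed to -0.04 without scaling, to -0.049 with limma at each pseudocount (0.1, 1 and 5) and to -0.06 without KO CMS replicate 1, with a range of -0.06 to 0.143 over left-out libraries. Yap1 and Piezo1 passed the adjusted p in some other fits. With the replicate block 2453, 248 and 1747 genes were called in the 3 comparisons. Deviations of same-numbered libraries correlated between -0.137 and 0.146, so the numbers do not pair them. Depth limits what can be said of genes with 0 counts, which allow up to 3 counts per library, counting error only. Genotype and the table it came in cannot be separated.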

Other observations

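In the KEGG annotation of the tables, the lysosome pathway had 81 of 105 tested genes higher and 9 lower in KO CMS than in KO SSt (median log2 0.66), with 29.5% called, against 19.2% of all tested genes. The cell cycle pathway had 15 higher and 85 lower of 119 (median -0.62, 41.2% called). Of 110 genes of the Hippo pathway, which restrains YAP, 23 were higher and 56 lower (median -0.24, 29.1% called). Focal adhesion had 48 higher and 66 lower of 162 (29.6% called), and MAPK signalling 83 higher and 74 lower of 219 (23.7% called). KEGG pathways share members with each other and with the lists above.

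Besides Mboat7 and Chrdl2, the genes Cx3cr1 and Rmi2 had 0 counts in all KO CMS libraries. Cx3cr1, the receptor of the chemokine CX3CL1 on monocytes and macrophages, had 94, 129 and 124 counts in KO SSt. Its mean KO SSt level was 38.2-fold above what 3 counts in each KO CMS library would give. Rmi2, a subunit of the complex that dissolves recombination intermediates, had 53, 95 and 117 counts, a mean 29-fold above that level. Both were chosen after their values were seen.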
